A study of Mus musculus with 5 samples.

Results

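The genes described here carry sugars through the absorptive cell of the mouse intestine or turn them into glucose there, and their signal was followed in tumour and normal epithelium. They were taken as a named set of 9 genes out of 12393 on the array, with all 13 of their probe sets out of 22626, a probe set being a group of short probes read as 1 value. The set holds the sugar transporters Slc5a1, Slc2a5 and Slc2a2, the fructose kinase Khk, the hexose mutarotase Galm, and Slc37a4, G6pc, Fbp1 and Pck1 of glucose production. All 9 were measured, 6 of them by 1 probe set and 3 by several. The tumour group held 3 arrays (tumours 16, 18 and 2) of intestinal tumours from Apc1638N mice on the C57Bl6/J strain, which carry a mutated Apc allele. The wild-type group held 2 arrays (36 and 62) of normal intestinal epithelium from C57Bl6/J mice. All samples came from males of 8 months, and the cells of both groups were taken by laser capture microdissection. The labels give no gut segment for either group, no normal epithelium of the mutant mice was among the samples, and nothing states that each array came from its own animal. The p-values therefore measure the spread between the arrays, which may be technical, and having few arrays limits how precise each value is.

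Dietary glucose and galactose enter the enterocyte, the absorptive cell of the villus, through the sodium-driven brush border transporter Slc5a1, and fructose through Slc2a5. Slc2a2 carries all of these sugars out of the cell across the basolateral membrane into the blood. Part of the fructose is phosphorylated by Khk and turned into glucose inside the cell. That route shares its last steps with gluconeogenesis, in which Pck1 makes phosphoenolpyruvate, Fbp1 removes a phosphate from fructose bisphosphate, Slc37a4 brings glucose phosphate into the endoplasmic reticulum and G6pc releases free glucose there.

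Every one of the 9 genes was lower in tumours in its probe set of highest mean signal, and 8 of them passed the test, with G6pc the exception. The test was limma fitted over all 22626 probe sets, with Benjamini-Hochberg adjustment over all of them and a threshold of 0.05. Over all 12393 genes, 9.92% were called lower and 10.5% called higher by the same rule. The 9 genes were chosen with earlier results of these data known, so the shares given here describe the set and do not test it. Counted by probe set, 10 of 13 were called lower, against 8.72% of all probe sets. In all 13 probe sets every tumour lay below every wild type, which held for 22.5% of all probe sets. The median change over the 9 genes was -2.32 on the log2 scale, tumour minus wild type, against 0.004 over all genes. Taken one probe set at a time, an exact permutation test over 5 arrays cannot go below a two-sided p of 0.1, the value found for each of the 13. The count of 8 genes depended on the wild-type arrays. It was 4 without wild type 36 (Slc2a5, Slc5a1, Khk and Slc37a4) and 0 without wild type 62, where limma called 0 of all probe sets and 6682 had an unadjusted p under 0.05, all 9 genes among them. With probe sets holding tied values also left out, the same fits called 7 and 8 of the 9 genes. A fit with 1 wild-type array takes its spread from the tumours alone and assumes that the lone array varies like them.

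**Figure D1:**
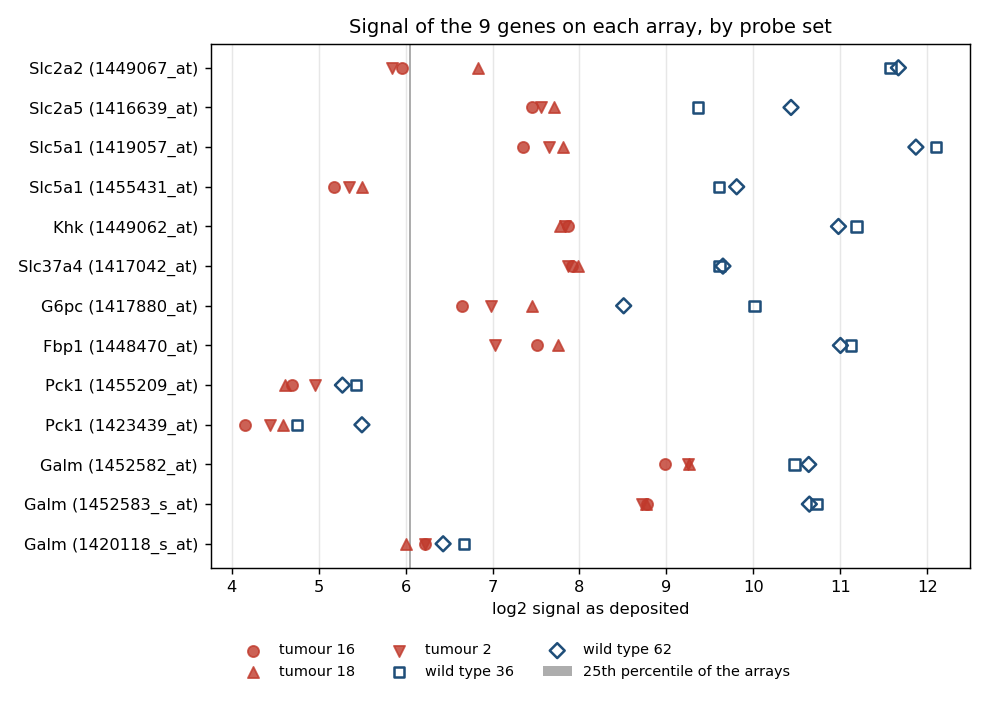
Deposited log2 signal (horizontal axis) of the 13 probe sets of the 9 genes on each array, with tumours as filled red symbols and wild types as open blue symbols. The grey band marks the 25th percentile of the 5 arrays. In every row all tumours lie left of both wild types, and both Pck1 rows lie left of the grey band on all arrays.

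The promoters of the 4 genes with the largest falls, and of G6pc, whose wild-type arrays differed most, are shown because these genes lay low together in tumours. Each is the 250 bases before the start site, from the RefSeq promoter table of build GRCm38.p6, 5′ to 3′ on the gene's strand. Capitals mark matches on either strand to 7 short motifs: GTTAAT (an HNF1 half-site), CAAAGT (an HNF4 half-site), TTTATNG (CDX), AGATAA (bound by GATA factors), TGACGTCA (CRE), CACGTG (E-box) and TATAAA (the core of the TATA box). Of these, TTTATNG and TATAAA can overlap.
Slc2a2, chr3:28697653-28697902, plus strand: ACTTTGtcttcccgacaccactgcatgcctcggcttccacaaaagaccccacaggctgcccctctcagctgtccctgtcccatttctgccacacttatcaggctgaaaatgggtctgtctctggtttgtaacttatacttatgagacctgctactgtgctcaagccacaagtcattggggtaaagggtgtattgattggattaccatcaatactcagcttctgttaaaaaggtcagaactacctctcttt
Slc5a1, chr5:33103969-33104218, plus strand: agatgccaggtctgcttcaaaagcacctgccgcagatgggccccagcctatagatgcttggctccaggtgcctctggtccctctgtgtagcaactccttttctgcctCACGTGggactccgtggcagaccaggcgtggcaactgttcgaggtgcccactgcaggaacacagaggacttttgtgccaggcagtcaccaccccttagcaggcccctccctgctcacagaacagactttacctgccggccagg
Fbp1, chr13:62888283-62888532, minus strand: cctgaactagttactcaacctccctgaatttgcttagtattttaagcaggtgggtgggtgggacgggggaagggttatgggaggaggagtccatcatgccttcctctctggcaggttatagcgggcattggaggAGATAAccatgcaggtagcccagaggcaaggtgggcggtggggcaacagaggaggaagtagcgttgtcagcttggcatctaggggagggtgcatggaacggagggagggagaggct
Khk, chr5:30921309-30921558, plus strand: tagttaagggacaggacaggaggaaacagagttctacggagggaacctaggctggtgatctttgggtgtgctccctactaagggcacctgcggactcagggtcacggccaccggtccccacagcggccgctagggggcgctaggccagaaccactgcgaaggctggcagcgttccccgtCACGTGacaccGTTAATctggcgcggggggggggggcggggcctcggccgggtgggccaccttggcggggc
G6pc, chr11:101367466-101367715, plus strand: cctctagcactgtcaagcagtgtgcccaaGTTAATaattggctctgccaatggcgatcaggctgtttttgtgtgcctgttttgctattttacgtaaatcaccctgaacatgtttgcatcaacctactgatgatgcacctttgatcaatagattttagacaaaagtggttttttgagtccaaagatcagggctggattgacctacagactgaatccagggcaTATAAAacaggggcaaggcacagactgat

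A promoter was held for 8 of the 9 genes (10 windows, since Slc37a4 had 3). The E-box letters, which the glucose-sensing factor encoded by Mlxipl and many other factors bind in variant forms, stood in the Khk and Slc5a1 windows and in 6.02% of 32851 promoter windows of all genes. The HNF1 half-site stood in G6pc, Khk and Pck1 (6.43% of all windows) and the HNF4 half-site in Slc2a2 (12.6%). The GATA letters stood in Fbp1 and Pck1 (9.99%), the CDX letters in Pck1 and Slc37a4 (9.81%) and the TATA box in G6pc and Slc37a4 (12.4%). Both Slc37a4 matches lay in the same stretch, CTATAAA, of the last of its 3 windows, and its other windows held 0 matches. The percentages count windows, not genes. The CRE in the exact spelling TGACGTCA was found in 0 of the 8 genes and in 1.55% of all windows. Near matches, such as TTACGTCA in the Pck1 window, were not counted. The Slc2a5 window held 0 of the 7 motifs in these spellings. A match is a run of letters, and no binding was measured.

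Slc5a1, the brush border transporter of glucose and galactose, was read by a pair of probe sets that gave nearly the same change. In the brighter one (1419057_at) the signal was 7.35, 7.81 and 7.65 in tumours 16, 18 and 2 and 12.10 and 11.87 in wild types 36 and 62. The lowest wild type stood 4.06 above the highest tumour. Wild types averaged 11.99 ± 0.16 (SD, n = 2) and tumours 7.61 ± 0.23 (SD, n = 3), so Slc5a1 fell by 4.38 log2 units or 20.8-fold (SE 0.17, adjusted p = 0.00467). The other probe set (1455431_at) gave 5.18, 5.50 and 5.34 in tumours and 9.61 and 9.81 in wild types. Its change was -4.37 (SE 0.12, adjusted p = 0.00466). All tumour values of this second probe set were under the 25th percentile of their arrays, so no fold is given for it. The call of the brighter probe set was lost without wild type 62 (adjusted p = 0.0595).

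Slc2a2, the exit transporter of the basolateral membrane, had the most negative change of the 9 genes. Its signal (1449067_at) was 5.96, 6.84 and 5.84 in tumours 16, 18 and 2, against 11.58 and 11.67 in the wild types. Wild types were close together, while tumour 18 stood above the other tumours. The mean moved from 11.62 ± 0.063 (SD, n = 2) to 6.21 ± 0.55 (SD, n = 3), a change of -5.41 with a 95% interval of -6.36 to -4.47 (SE 0.35, adjusted p = 0.00641). Tumours 16 and 2 lay under the 25th percentile of their arrays, so the size of the fall is uncertain and no fold is given. The call was lost without wild type 36 (adjusted p = 0.0569) or wild type 62 (0.0662), with a change of -5.46 and -5.37.

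Slc2a5, the fructose transporter of the brush border, had even tumours and uneven wild types. Its signal (1416639_at) was 7.46, 7.71 and 7.56 in tumours 16, 18 and 2 and 9.36 and 10.43 in wild types 36 and 62. The lower wild type was still 1.65 above the highest tumour. Slc2a5 fell by 2.32 (SE 0.35, 95% interval -3.27 to -1.37, adjusted p = 0.0233), a 5.0-fold difference. The change was -2.86 without wild type 36 and -1.79 without wild type 62. The call was lost without tumour 16 (adjusted p = 0.103), tumour 18 (0.0880), tumour 2 (0.0688) or wild type 62 (0.0595).

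Khk, which phosphorylates fructose, changed with little spread. Its signal (1449062_at) was 7.87, 7.78 and 7.83 in tumours 16, 18 and 2 and 11.19 and 10.98 in wild types 36 and 62. Tumours lay close together (SD 0.046, n = 3) and 3.11 or more below either wild type. Khk fell by 3.26 (SE 0.076, 95% interval -3.46 to -3.05), or 9.56-fold, and its adjusted p of 0.00442 in limma was the lowest of any probe set, shared with others. The change ran from -3.36 to -3.15 when 1 array was left out, and the call was lost without wild type 62 alone (adjusted p = 0.0595).

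Galm, the mutarotase that interconverts the ring forms of galactose and glucose, was read by 3 probe sets that differed in size of change. The brightest (1452582_at) gave 8.99, 9.26 and 9.25 in tumours 16, 18 and 2 and 10.48 and 10.64 in the wild types. It fell by 1.39 (SE 0.11, adjusted p = 0.00792), or 2.62-fold. The second (1452583_s_at) gave 8.77, 8.77 and 8.72 against 10.73 and 10.64. It fell by 1.93 (SE 0.042, adjusted p = 0.00442), and its interval of -2.05 to -1.82 did not meet that of the brightest, -1.70 to -1.08. The third (1420118_s_at) was dim, at 6.23, 6.01 and 6.23 in tumours and 6.67 and 6.43 in wild types. It differed by -0.40 (adjusted p = 0.0871 in limma) and did not pass. Names ending in _s_at mark probe sets that can match more than 1 transcript. The call of the brightest was lost without wild type 36 (adjusted p = 0.0579) or 62 (0.0727).

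Fbp1, the fructose bisphosphatase, fell most among the genes of glucose production. Its signal (1448470_at) was 7.51, 7.75 and 7.02 in tumours 16, 18 and 2 and 11.13 and 11.002 in wild types 36 and 62. The groups were 3.25 apart at their nearest values. The mean fell from 11.06 ± 0.087 (SD, n = 2) to 7.43 ± 0.37 (SD, n = 3), which is 12.4-fold (change -3.63, SE 0.24, adjusted p = 0.00651). Without wild type 36 or 62 the adjusted p was 0.0578 or 0.0662, at changes of -3.57 and -3.70. Its 95% interval, -4.29 to -2.98, overlapped that of Khk, and differences between the changes of single genes were not tested.

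Slc37a4, the glucose phosphate carrier of the endoplasmic reticulum, showed a smaller and even fall. Its signal (1417042_at) was 7.92, 7.98 and 7.86 in tumours 16, 18 and 2 and 9.61 and 9.65 in the wild types. The SD was 0.060 over tumours and 0.029 over wild types. Slc37a4 fell by 1.71 (SE 0.048, 95% interval -1.84 to -1.58, adjusted p = 0.00466), or 3.27-fold. It lost its call without wild type 62 alone (adjusted p = 0.0595).

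G6pc, the catalytic subunit that works with Slc37a4, did not pass. Its signal (1417880_at) was 6.64, 7.45 and 6.98 in tumours 16, 18 and 2 and 10.01 and 8.51 in wild types 36 and 62. The wild types lay far apart (SD 1.06, n = 2), a spread that 0.0884% of all probe sets equalled or exceeded, and the lower one was 1.06 above the highest tumour. The change was -2.23 (SE 0.54, 95% interval -3.70 to -0.76) with an adjusted p of 0.0622 in limma. It was -1.48 without wild type 36 and -2.98 without wild type 62. Across the alternatives its adjusted p lay on both sides of the threshold. It was 0.0437 after quantile normalization, 0.0391 after median centring and 0.0223 without tied probe sets, but 0.0584 with array weights and 0.0726 without shared-target probe sets. With 1 array left out it ran from 0.0801 to 0.190. The wild types also stood in the opposite order for Slc2a5, which was lower in wild type 36 where G6pc was higher.

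Pck1, the cytosolic enzyme at the start of gluconeogenesis, was dim on every array. Its brighter probe set (1455209_at) gave 4.69, 4.62 and 4.96 in tumours 16, 18 and 2 and 5.43 and 5.27 in wild types, all under the 25th percentile of their arrays. It fell by 0.59 (SE 0.13, 95% interval -0.94 to -0.25, adjusted p = 0.0470), which is close to the threshold. The other probe set (1423439_at) gave 4.16, 4.59 and 4.44 against 4.75 and 5.50 and differed by -0.73 (adjusted p = 0.157 in limma). That difference was -1.10 without wild type 36 and -0.36 without wild type 62. The brighter one no longer passed without tumour 16 (adjusted p = 0.161), tumour 18 (0.128), wild type 36 (0.198) or wild type 62 (0.150), and with shared-target probe sets left out (0.0551). At this brightness no fold is given, and signal near background was not told apart from expression.

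**Figure D2:**
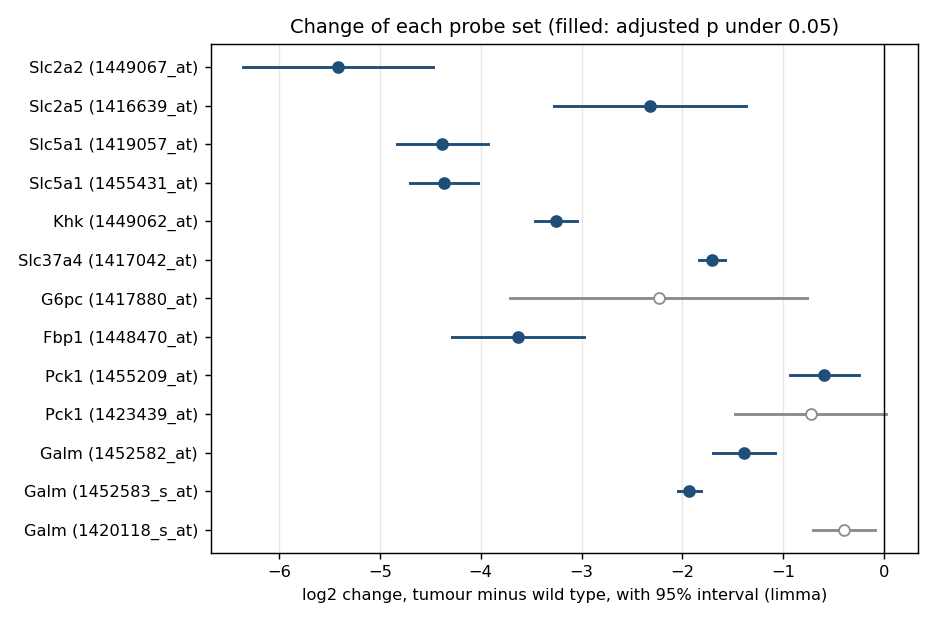
Change of each of the 13 probe sets (horizontal axis, log2 signal of tumour minus wild type), with limma's 95% interval as a line and a filled point where the adjusted p was under 0.05. Slc2a2 lies furthest left at -5.41, and the 3 open points are G6pc and the dimmer probe sets of Pck1 and Galm.

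The tumours were not alike in these genes. Tumour 18 had the highest tumour signal in 9 of the 13 probe sets, while it was the highest tumour in 34.9% of all probe sets. The excess of tumour 18 was largest for Slc2a2 and G6pc. Khk, the brighter Pck1 probe set and both shared-target probe sets of Galm went another way. Without tumour 18, the changes of Slc2a2 and Fbp1 were -5.73 and -3.80. The disaccharidase genes Lct and Treh were also highest in tumour 18. So were all 7 measured fibroblast and matrix genes, whose median signal was 9.12, 10.01 and 8.24 in tumours 16, 18 and 2 and 7.39 and 7.02 in wild types. Among those 7 genes decorin (Dcn) rose by 2.60 (adjusted p = 0.0418), and 6 did not pass. Other lists, described below, were less even. Tumour 18 was the highest tumour in 7 of 11 other hexose transporters and 6 of 12 other gluconeogenesis genes. In absorptive enterocyte genes with no role in sugar handling that held for 8 of 15. It held for 1 of 5 fructose and sorbitol enzymes, 1 of 5 galactose enzymes, 4 of 19 glycolysis genes and 3 of 22 regulators. The part of matrix-producing cells in these results was not tested.

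**Figure D3:**
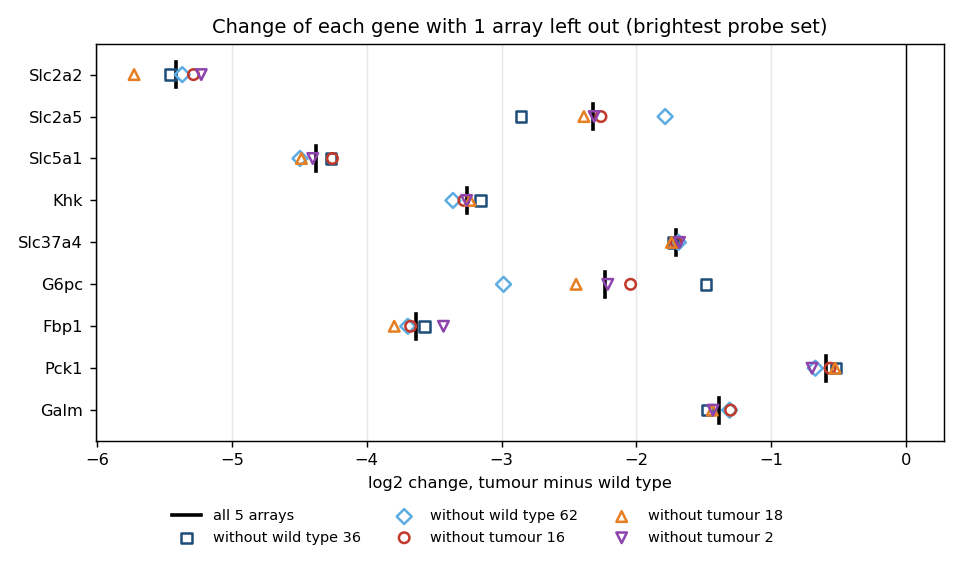
Change of the brightest probe set of each gene (horizontal axis, log2 signal of tumour minus wild type) with all 5 arrays (black bars) and with 1 array left out (open symbols). G6pc and Slc2a5 move most, in opposite directions for wild types 36 and 62, and every symbol stays left of 0.

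Genes that work beside the set were taken from lists, each gene read by its brightest probe set. Over the 7 pathway lists 32 of 76 measured genes were called in either direction, against 2528 of all 12393 genes. Without tumour 16, 18 or 2 the count of pathway genes was 9, 13 or 25. The count over all 22626 probe sets moved as well, from 4139 to 927, 1422 or 3424. Both counts also depended on the wild-type arrays. Both measured disaccharidases of the brush border fell, with lactase (Lct), which splits milk sugar, at -4.41 (SE 0.78, adjusted p = 0.0326) and trehalase (Treh) at -3.08 (SE 0.21, adjusted p = 0.00666). Lct was 6.42, 8.54 and 6.36 in tumours 16, 18 and 2 and 11.61 and 11.42 in wild types. Of 5 measured enzymes of fructose and sorbitol metabolism, 3 fell and 0 rose, with a list median of -0.53. These were Tkfc, which phosphorylates the glyceraldehyde made from fructose, at -1.61 (SE 0.16, adjusted p = 0.0106), the hexokinase family gene Hkdc1 at -2.37 (SE 0.43, adjusted p = 0.0343) and the glycerate kinase gene Glyctk at -0.53. Of 5 galactose pathway enzymes, 1 fell, the phosphoglucomutase gene Pgm1 at -0.30 (adjusted p = 0.0149). Galt, the uridylyltransferase of that pathway, differed by -0.15 and did not pass.

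Other hexose transporters were mixed. Of 11 measured, 4 fell, 1 rose and 6 did not pass, with a median of -0.12. Slc2a1, the transporter that most dividing cells use for glucose, rose by 1.65 (SE 0.20, adjusted p = 0.0165), from 7.66 and 7.41 in wild types to 8.89, 9.17 and 9.49 in tumours 16, 18 and 2. Its other probe sets rose by 1.25 and 0.44. Slc5a11, a sodium-coupled inositol and glucose carrier, fell by 1.505 (SE 0.18, adjusted p = 0.0157), the urate and hexose transporter Slc2a9 by 1.35 (SE 0.070, adjusted p = 0.00553) and Slc5a9 by 0.56 (adjusted p = 0.0343). Slc5a4a and Slc5a4b, close relatives of Slc5a1, had changes of -1.68 (adjusted p = 0.0571) and -0.45 (0.0191). Probe sequences were not compared, so whether these probe sets share signal was not tested.

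Other genes of gluconeogenesis were mixed as well. Of 12 measured, 3 fell, 1 rose and 8 did not pass, with a median of -0.40. The alanine aminotransferase gene Gpt changed by -2.40 (SE 0.086, adjusted p = 0.00466), Fbp2, the second fructose bisphosphatase gene, by -1.85 (SE 0.24, adjusted p = 0.0176) and the cytosolic aspartate aminotransferase gene Got1 by -1.70 (SE 0.32, adjusted p = 0.0354). Glutamine synthetase (Glul) rose by 1.46 (SE 0.22, adjusted p = 0.0226). Pck2 and G6pc3, relatives of Pck1 and G6pc outside the set, differed by 0.63 (adjusted p = 0.0750) and 0.20 (0.0728) and did not pass. With tied probe sets left out, or with a gene's probe sets averaged, 7 genes of this list were called.

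Of 19 genes of glycolysis and lactate transport, 5 rose, 4 fell and 10 did not pass, with a median of -0.04. The hexokinase genes Hk2 and Hk1, which phosphorylate glucose at the start of glycolysis, rose by 1.48 (SE 0.20, adjusted p = 0.0192) and 1.11 (SE 0.058, adjusted p = 0.00553). The liver-type phosphofructokinase gene Pfkl rose by 1.07 (SE 0.073, adjusted p = 0.00663). A second probe set of Hk1 and of Pfkl differed by 0.05 and 0.22 without a call. Pklr, the pyruvate kinase of liver and gut, fell by 1.19 (SE 0.16, adjusted p = 0.0196), with changes of -0.69 (adjusted p = 0.0341) and -0.20 (0.163) in its dimmer probe sets. With shared-target probe sets left out, 3 of 12 measured genes of this list were called.

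**Figure D4:**
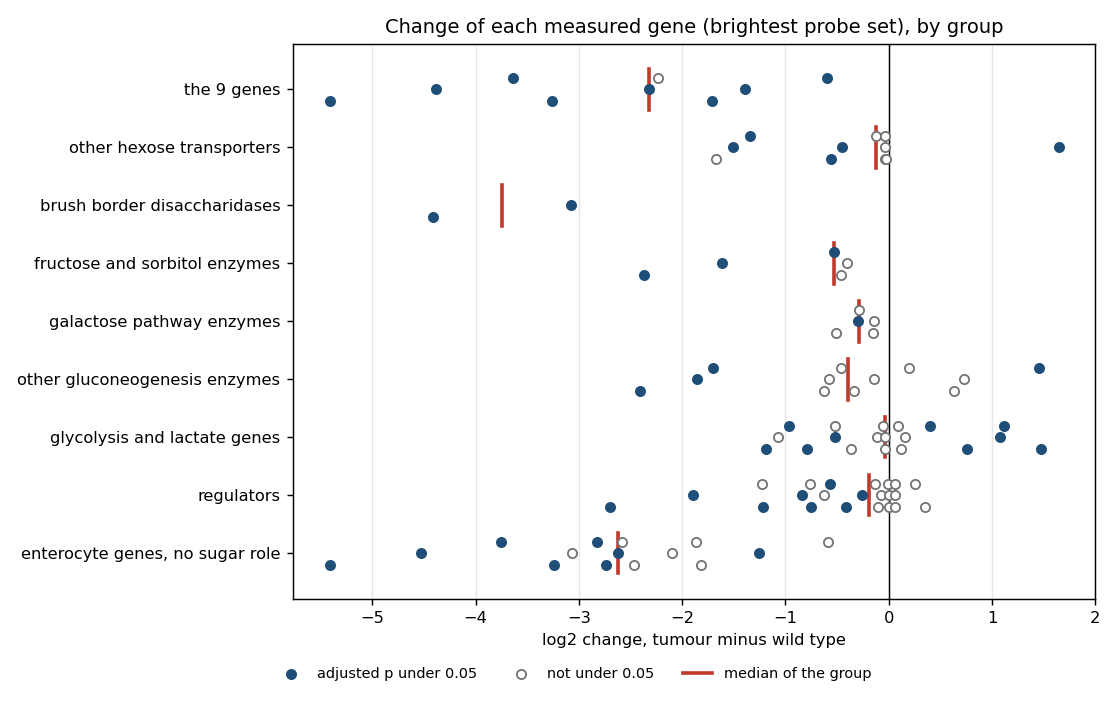
Change of every measured gene (horizontal axis, log2 signal of tumour minus wild type) by group, with filled points where the adjusted p was under 0.05 and a red bar at each group's median. The 9 genes have their median at -2.32, the glycolysis and lactate genes at -0.04 and the enterocyte genes with no role in sugar handling at -2.62.

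Among 22 regulators of sugar and gluconeogenesis genes, 8 fell, 0 rose and 14 did not pass, with a median of -0.19. Mlxipl, the glucose-sensing transcription factor that acts on fructose and glycolysis genes, fell by 1.89 (SE 0.12, adjusted p = 0.00641), from 10.08 and 10.06 in wild types to 8.27, 7.96 and 8.31 in tumours. Ppargc1a, a coactivator of gluconeogenesis and mitochondrial genes, fell by 2.70 (SE 0.33, adjusted p = 0.0158), and its other 4 probe sets had changes between -2.55 and -2.19. The nuclear receptor genes Hnf4g and Nr3c1, the latter for the glucocorticoid receptor, fell by 1.22 (SE 0.12, adjusted p = 0.0107) and 0.84 (SE 0.076, adjusted p = 0.00938). Hnf4a, the relative of Hnf4g that is also abundant in enterocytes, had means of 11.77 in both groups and a 95% interval of -0.27 to 0.27 for its change. One of its other probe sets, at 5.98 against 6.48, fell by 0.50 (adjusted p = 0.0119).

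Absorptive enterocyte genes with no role in sugar handling were low beside the set. Of 15 measured, 8 fell, 0 rose and 7 did not pass, with a median of -2.62, close to the -2.32 of the sugar genes. The count was 3 without tumour 16, 1 without wild type 36, 0 without wild type 62 and 12 without tied probe sets. Among those called were the peptidase genes Enpep (-5.41), Mme (-4.52), Dpp4 (-3.75) and Anpep (-3.24). Each of these had at least 1 tumour value under the 25th percentile of its array, so the sizes and their order are uncertain. Fewer absorptive cells in the captured tissue and less RNA per cell cannot be told apart in these arrays. Of 7 general epithelial genes 2 rose and 0 fell. Epcam, the epithelial adhesion gene, was 10.79 to 11.20 in tumours and 11.42 and 11.56 in wild types (change -0.48, adjusted p = 0.0953), and the keratin genes Krt18 and Krt19 rose by 2.44 and 1.20.

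Liver genes were checked because liver cells also express G6pc, Pck1, Fbp1 and Slc2a2. Of 5 measured, 0 were called in limma, with 2 at an unadjusted p under 0.05. The count was 1 after quantile normalization, median centring, trend and robust eBayes or array weights, and 2 without dim or tied probe sets. Fibrinogen beta (Fgb) lay under the 25th percentile on all arrays. The apolipoprotein gene Apoh differed by -0.08 without a call. Albumin (Alb) was 7.11, 7.34 and 7.55 in tumours 16, 18 and 2 and 6.67 and 6.82 in wild types. It differed by 0.59 and did not pass (adjusted p = 0.0673 in limma). In 2 of the 5 liver genes every tumour lay above every wild type. The list median was 7.08 to 7.18 in tumours and 6.72 to 6.82 in wild types. Transthyretin (Ttr) had the highest mean of that list, at 10.86, 10.89 and 9.29 in tumours 16, 18 and 2 and 7.84 and 7.71 in wild types, and did not pass (adjusted p = 0.0537). Of 3 exocrine pancreas genes, the elastase gene Cela1 rose by 2.26 (SE 0.36, adjusted p = 0.0257). Of 6 T cell genes 3 fell, with Ccl5 at -3.40, Gzma at -2.84 and Cd3g at -1.41. Of 5 B and plasma cell genes 1 fell (Jchain, -2.99), of 5 macrophage genes 1 rose (Cd14, 0.94), and of 5 smooth muscle genes 1 rose (Acta2, 1.22). Endothelial genes (Kdr at 0.00 and Pecam1 at 0.19 among 5 measured) and red blood cell genes (Alas2 at 0.30 and Hba-a1 at -0.12, both measured) had 0 calls in limma, with 1 and 1 at an unadjusted p under 0.05. The excess of 3′ over 5′ signal, which is larger where RNA is more degraded or the labelled copies are shorter, was larger in every tumour than in either wild type. This 3′ minus 5′ log2 signal of beta-actin was 3.999 to 4.25 in tumours and 2.51 to 3.32 in wild types, and that of Gapdh was 4.50 to 4.83 against 3.67 to 4.01. The part of cell mixture or RNA quality in the falls of the sugar genes was not tested.

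The 5 genes outside the set whose signal followed the median course of the 9 genes most closely were picked out. That course is lower in tumours, so a lower tumour signal in these 5 genes was fixed by the choice. Likeness was the root mean square difference over the 5 arrays, each gene centred on its own mean, and it describes these arrays only. They were Pls1, which encodes an actin-bundling protein of microvilli (distance 0.195, change -2.98), Treh (0.210, -3.08), the deoxyribonuclease gene Dnase1 (0.210, -3.07), the antimicrobial lectin gene Reg3a (0.228, -2.94) and Chpt1 of phosphatidylcholine synthesis (0.248, -2.72). Of the 9 genes themselves, Khk lay nearest the median course (0.295), and Slc2a2 (1.25) and Pck1 (1.19) lay farthest. That course was made from these same genes, and Khk itself supplied the median on some arrays. The distance also grows where a gene's change is larger or smaller than the median, so this order is no separate finding.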

How the data were processed

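Expression was measured on 5 Affymetrix arrays. The authors deposited log2 signals for 22690 probe sets, a scale read from the values (3.38 to 14.3). Processing was done with affy in R per the submitters' processing notes, and the summary method, background correction and normalization are not given in the sources used here. RNA was column-purified with DNase treatment and labelled by the maker's small-sample protocol, per the labels' protocols. The values were used as deposited, without a filter on dim signal. Array medians were 6.81 to 6.87.

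Setting aside 64 control probe sets left 22626, of which 20380 had 1 gene symbol in GEO's platform annotation, 691 several and 1555 none. Groups came from the titles. Differences (tumour minus wild type) were tested in limma 3.58.1 under R 4.3.3 with lmFit and eBayes, two-sided. Benjamini-Hochberg adjustment was over all probe sets, with 3 residual and 1.19 prior degrees of freedom. The code was also run on simulated data with independent normal noise and 200 changed probe sets. That noise left out the smallest spreads, so the run cannot vouch for the calls made here. Folds are 2 to the power of the log2 change. Each gene is read by its brightest probe set (highest mean over the arrays). Companion genes named are the up to 4 called genes of each list with the largest change, the largest called change against the majority, or the 2 brightest where none was called. Galt, Pck2, G6pc3, Mdh1, Hnf4a, Slc5a4a, Slc5a4b, Epcam, Alb and Fgb were named after their values were seen. Endothelial, red blood cell, liver, pancreas and other lists check for other cells. The members and lists were chosen with earlier results of these data known. Alternatives were quantile normalization, median centring, leaving out the dimmest 40% of probe sets, shared-target or tied probe sets (6864), trend and robust eBayes, array weights, 1 probe set or the mean of all per gene, and leaving out each array.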

Additional observations from a re-analysis of the deposited data

How the results depend on the processing

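All 13 probe sets of the 9 genes kept a negative change under every alternative that could be computed for them. The count of called genes among the 9 was 7 to 9 under the alternatives that kept all arrays, against 8 in the main analysis. Leaving out 1 array gave 0 to 7 called genes, 0 to 9 called probe sets of the 13 and 0 to 25 called genes of the 76 companion pathway genes, against 8, 10 and 32. Removing tied probe sets as well, these fits gave 7 to 9, 9 to 11 and 24 to 39. Over the whole array 4139 probe sets were called. The count was 2224 with shared-target probe sets left out and 2695 with 1 probe set per gene, where fewer values were tested. It ran from 0 to 3424 with 1 array left out and from 2830 to 5266 once tied probe sets were removed as well. The cause of the larger counts without tied probe sets was not tested. Without wild type 62 the lowest adjusted p among the 9 genes was 0.0595 in limma, and all 9 had an unadjusted p under 0.05. Averaging a gene's probe sets called 7 of 12 other gluconeogenesis genes, against 4. The counts of several lists for other cell types moved too. Those of the endothelial and red blood cell lists stayed at 0 under the alternatives that kept all arrays. The labels give the groups no shared replicate numbers. No paired analysis was possible because no number occurs in both groups. Signal over background was not analysed here, which limits the sizes given for Pck1 and for the tumour values of Slc2a2.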
